A study of Mus musculus with 11 samples.

Results

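The nucleosome remodelling and deacetylase (NuRD) complex was examined through 10 of its subunit genes in RNA-seq of mouse embryonic stem cells (ESCs) transfected with CMTR1 siRNAs. The genes were taken by symbol from the 54838 Ensembl genes of the count files, and were Chd4, Chd3, Mbd3, Mbd2, Gatad2a, Mta1, Mta2, Mta3, Hdac1 and Hdac2. All 10 passed the filter on low counts that left 16073 genes to test. In the siRNA 2 libraries Mta1 fell by 0.28 on the log2 scale and Mbd2 and Hdac2 rose by 0.35 and 0.23. In the siRNA 1 libraries Mta1 fell by 0.16 and Chd3 rose by 0.25. These siRNA 1 calls held under only 8 and 9 of 18 alternative settings, and the siRNA 2 call of Mbd2 under 15. The most abundant subunit gene, Chd4, and Mta2, Mta3, Mbd3, Hdac1 and Gatad2a were called changed in neither comparison with control.

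NuRD joins the enzymatic activities of a chromatin remodelling ATPase and of histone deacetylases in a single complex. An MTA protein is the scaffold that holds HDAC1 or HDAC2 and the histone-binding proteins RBBP4 and RBBP7. An MBD protein, MBD2 or MBD3, and a GATAD2 protein link this deacetylase core to the ATPase, CHD3, CHD4 or CHD5. Paralogous subunits can replace each other, and MBD2 and MBD3 occupy alternative complexes. MBD2 binds methylated DNA, whereas mammalian MBD3 binds it poorly. In ESCs NuRD dampens the transcription of pluripotency genes and is needed for orderly exit from self-renewal.

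CMTR1 methylates the ribose of the first transcribed nucleotide of capped RNA. The cells were the E14 line, grown with LIF on gelatin, and all groups were transfected with an siRNA and collected after 36 h. The groups were a control scramble siRNA (3 libraries), CMTR1 siRNA 1 (4 libraries) and CMTR1 siRNA 2 (4 libraries). Both siRNA groups were compared with the same 3 control libraries, so the comparisons share their controls. The treatment is a transient knockdown in bulk cultures of a single line, and because the RNA came from whole cultures, fewer cells of a type and less RNA per cell cannot be told apart.

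Gene counts ran from 6738478 to 8382318 per library. The targeted transcript, Cmtr1, was counted at 21.3, 21.7 and 17.9 CPM (counts scaled to library size) in the 3 control libraries, 21.1, 21.3, 16.2 and 18.0 CPM with siRNA 1, and 15.6, 16.8, 16.4 and 19.5 CPM with siRNA 2. The groups overlapped, and the log2 fold changes of -0.088 (SE 0.11, adjusted p = 0.743) and -0.25 (SE 0.11, adjusted p = 0.144) did not pass the test, so the RNA counts alone do not check the knockdown. The groups below are therefore those of the labels. All 8 ESC markers were detected, and their summed level was 1916 to 2019 CPM in control, 1644 to 1810 CPM with siRNA 1 and 1731 to 1809 CPM with siRNA 2. The summed levels of the lists for other cell types were far lower, at most 116 CPM for neural genes. The 6 fibroblast feeder genes summed to 23.3 to 27.8 CPM in control, 24.7 to 28.5 CPM with siRNA 1 and 34.2 to 39.0 CPM with siRNA 2, with Lum at 0 in every control library. With siRNA 2, 3 of 5 feeder genes tested were called, beside 9.72% of all genes. Col1a1 (0.75) and Dcn (1.13) rose and Col3a1 (-1.42) fell on the log2 scale. The Col3a1 call rested on 2 to 6 reads per siRNA 2 library and held under 13 of 17 alternatives. That of Dcn held under 16 of 17, and both were lost with DESeq2. The neural gene Map2, 1 of 4 tested, rose with siRNA 2 (0.36, adjusted p = 0.0455, held under 6 of 18 alternatives). The part of these cell type lists in the results below was not tested.

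The levels of the subunits were first set side by side per kilobase of exon, which allows different genes to be compared. In control cells Chd4, the ATPase, had the highest level, 122 ± 1.6 CPM per kilobase (SD, n = 3). Mbd3 followed at 70.9 ± 2.5, Gatad2a at 60.7 ± 2.1 and Mta1 at 51.1 ± 1.3 CPM per kilobase, each separate from its neighbours. Mta2 (42.1 ± 2.3) and Hdac1 (40.9 ± 0.43) overlapped each other, as did Hdac2 (23.2 ± 0.75) and Mta3 (22.4 ± 2.0). Mbd2 (7.03 ± 0.59) and Chd3 (3.92 ± 0.073) were lowest. Chd4 lay at the 98.4th percentile of the 13222 protein-coding genes tested and Chd3 at the 40.9th percentile. Of the summed per-kilobase level within each family, Chd4 accounted for 95.7% of the CHD genes, Mbd3 for 91.0% of Mbd3 and Mbd2, Gatad2a for 80.4% of the GATAD2 genes and Hdac1 for 63.9% of Hdac1 and Hdac2. The MTA genes were more evenly divided, with 44.2% for Mta1, 36.4% for Mta2 and 19.4% for Mta3. The members called changed were the pair with the lowest levels, Hdac2, and Mta1, the highest MTA gene per kilobase. Without division by exon length Mta2 was above Mta1 in control, with means of 172 and 159 CPM.

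**Figure D1:**
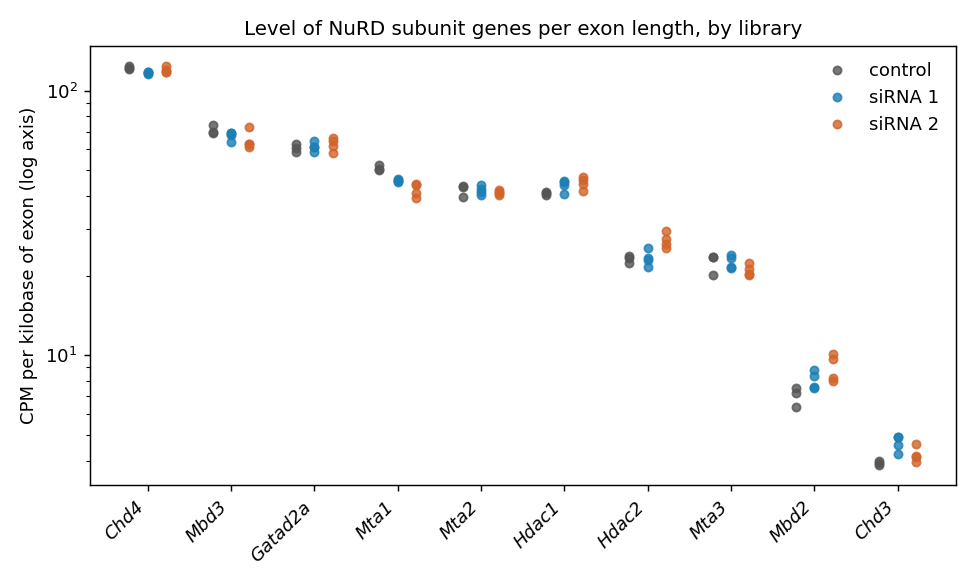
Level of the 10 subunit genes in CPM per kilobase of exon, on a log axis, with 1 point per library and colours for control (3 libraries), siRNA 1 (4) and siRNA 2 (4). Genes are ordered by their mean in control, from Chd4 at 122 to Chd3 at 3.92 CPM per kilobase.

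Because CMTR1 acts on the first transcribed nucleotide, the sequence around the annotated start was read for the members with a RefSeq promoter window, which were 6 of the 10 (8 windows, GRCm38.p6). The starts of Mta1 and Hdac2, which were called changed, are shown with those of Mta2 and Mbd3, which were not. Each line has 15 bases before the start and 15 bases from it, 5′ to 3′ on the gene's strand, with the first transcribed base in capitals.
Mta1, chr12:113098263-113098292, plus strand: gcggcctcggaggcgGcggcggcggcggcg
Hdac2, chr10:36974529-36974558, plus strand: cggaggcctacccctGccgagtgtcgcgcg
Mta2, chr19:8941905-8941934, plus strand: cgatctgcggggtctTgctctccgacctga
Mbd3, chr10:80399517-80399546, minus strand: cggcagtcagactggTcctgcgagcgcgaa
The annotated first base was G for Mta1 and Hdac2 and T for Mta2 and Mbd3. Among all 32851 promoter windows, 35.6% started with G, 34.4% with A, 16.3% with C and 13.7% with T. Chd4 and Gatad2a each had a pair of annotated starts, G and C for Chd4 and A and C for Gatad2a. The Mta1 window was the richest in G and C of the 8, with 81% over 300 bases and 50 CpG dinucleotides, against medians of 52.7% and 7 over all windows. All 8 windows were above both medians, which were not limited to genes that passed the filter. The Hdac2 window had 69.7% and 36, that of Mbd3 60.7% and 22, and that of Mta2 61.7% and 30. The windows of Gatad2a, which was not called, had 69.7% and 26, and 64% and 21. Those of Chd4, also not called, had 57% and 17, and 68.3% and 29. These are annotated positions, and the starts used in these cells were not measured.

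Each siRNA was then compared with control. With siRNA 1, 2 of the 10 members were called at an adjusted p of at most 0.05 (1 higher, 1 lower), against 4.67% of all genes tested (2.71% higher, 1.97% lower). With siRNA 2, 3 members were called (2 higher, 1 lower), against 9.72% of all genes (6.17% higher, 3.55% lower). The median log2 fold change of the members was 0.0074 with siRNA 1 and 0.0087 with siRNA 2, beside 0.024 and 0.029 over all genes. Of the 10 values, 6 lay above 0 with siRNA 1 and 5 with siRNA 2, beside 56.8% and 57.1% of all genes. The siRNA libraries did not overlap the control libraries for 4 members with siRNA 1 and 4 with siRNA 2, compared with 15.5% and 19.4% of all genes. With TMM scaling in place of library size, 346 genes were called higher and 400 lower with siRNA 1, and 728 and 734 with siRNA 2, in place of 435 and 316, and 991 and 571.

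**Figure D2:**
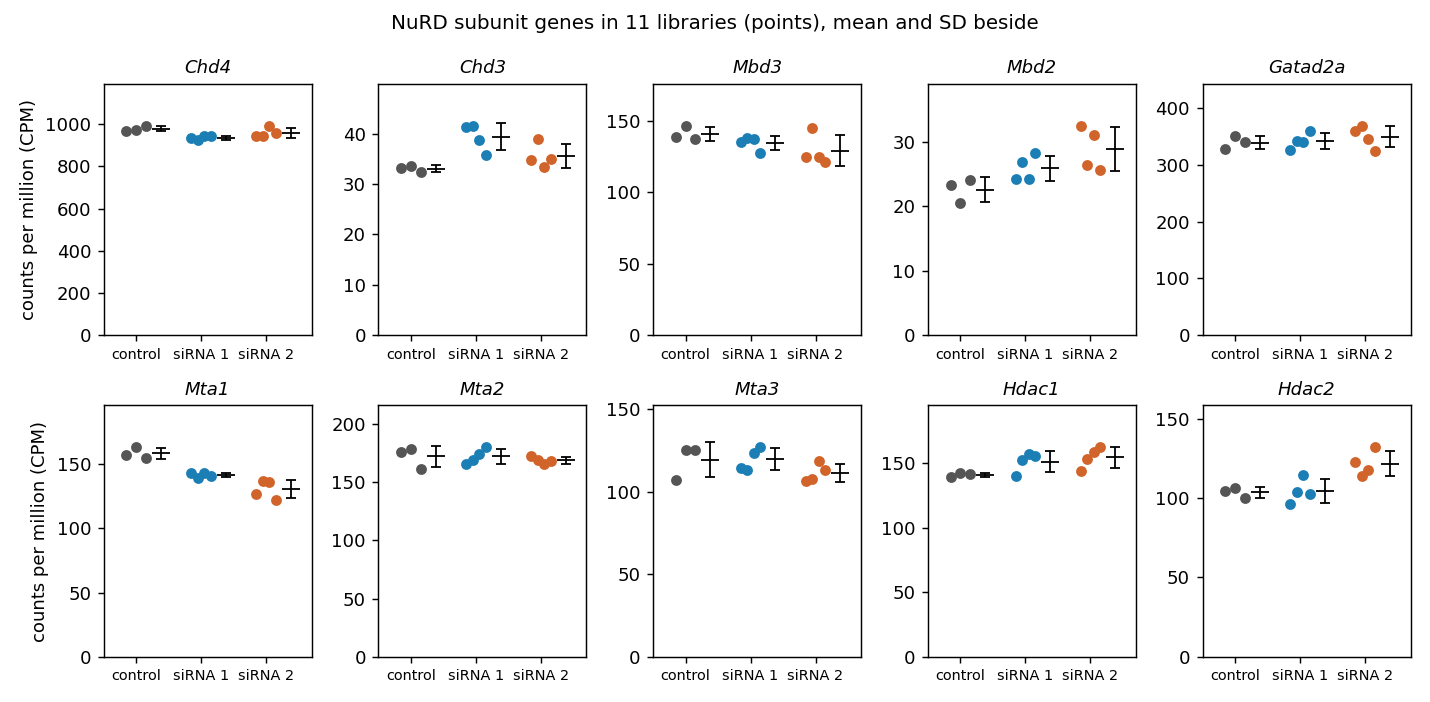
CPM of each subunit gene in the 11 libraries, with linear axes from 0; points are libraries and the bar beside each group is the mean with its SD. Mta1 in both siRNA groups lies below all control libraries, and Hdac2 is above them with siRNA 2 but overlaps them with siRNA 1.

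Of the MTA scaffolds, Mta1 was the only member called in both comparisons with control. Mta1 (ENSMUSG00000021144, chromosome 12, 113098278 to 113137206, plus strand, GRCm38) was at 158, 163 and 155 CPM in control, 143, 139.6, 143 and 141 CPM with siRNA 1, and 127, 137, 136 and 122 CPM with siRNA 2. The groups formed 3 separate ranges, with control highest and siRNA 2 lowest. Mta1 fell by 0.16 on the log2 scale with siRNA 1 (SE 0.050, adjusted p = 0.0479) and by 0.28 with siRNA 2 (SE 0.050, adjusted p = 1.47e-04). On the percent scale the change with siRNA 2 was -17.6% (95% interval -23.1% to -11.8%). The difference between the siRNAs, -0.12, did not pass the test (SE 0.047, adjusted p = 0.128). The siRNA 2 call held under all 18 alternatives. The siRNA 1 call lay close to the threshold and held under 8 of 18. It was lost with the replicate block, with no filter on low counts (adjusted p = 0.0756), on leaving out any 1 control library (0.0848 to 0.242) or any 1 siRNA 1 library (0.0589 to 0.143), and without siRNA 2 replicate 1 (0.0535), with a log2 fold change between -0.14 and -0.18 in each case.

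Mta2 (chromosome 19, 8941875 to 8952303, plus strand), another MTA scaffold gene, was at 162 to 179 CPM in control, 165 to 180.0 CPM with siRNA 1 and 165 to 173 CPM with siRNA 2. The groups overlapped throughout. Its log2 fold changes were -0.0012 and -0.030, with 95% intervals of -0.097 to 0.095 and -0.13 to 0.065. Mta3 (chromosome 17, 83706163 to 83821516, plus strand) was at 107 to 126 CPM in control, 113 to 127 CPM with siRNA 1 and 107 to 119 CPM with siRNA 2. Its log2 fold changes were 0.0046 (95% interval -0.11 to 0.12) and -0.097 (-0.21 to 0.017). Within the summed per-kilobase level of the family, the share of Mta1 was 44.2% ± 0.35 (SD, n = 3) in control, 41.4% ± 1.1 (n = 4) with siRNA 1 and 40.3% ± 1.4 (n = 4) with siRNA 2. The highest share in either siRNA group, 42.7%, was below the lowest in control, 43.9%.

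Among the deacetylases, Hdac2 differed between the siRNAs. Hdac2 (ENSMUSG00000019777, chromosome 10, 36974544 to 37001889, plus strand), a class I histone deacetylase, was at 105, 106 and 99.9 CPM in control, 96.3, 104, 114 and 103 CPM with siRNA 1, and 123, 114, 118 and 132 CPM with siRNA 2. The siRNA 2 libraries were above all controls, whereas the siRNA 1 libraries lay on both sides of them. Hdac2 rose with siRNA 2 by 0.23 (SE 0.058, adjusted p = 0.00681), an increase of 17.3%, and was at 0.010 (SE 0.059, adjusted p = 0.958) with siRNA 1. In the direct comparison of siRNA 2 with siRNA 1, the log2 fold change was 0.22 (SE 0.054, adjusted p = 0.00664), and it was the only 1 of the 10 members called, against 7.44% of all genes (4.49% higher, 2.96% lower). The call against control was lost without control replicate 3 (0.21, adjusted p = 0.0598), and that between the siRNAs held under all 18 alternatives, although the highest siRNA 1 library (114.2 CPM) overlapped the lowest siRNA 2 library (113.7 CPM). Markers of other cell types were also called between the siRNAs, with Col1a1 (0.76) and Dcn (0.99) higher and the neural gene Pax6 (-0.68) and the trophoblast gene Tfap2c (-0.40) lower with siRNA 2, 2 of 5 feeder, 1 of 4 neural and 1 of 4 trophoblast genes tested, as was the ESC marker Esrrb (-0.21), and their part in the Hdac2 difference was not tested. Only 1 member, Mta1, had siRNA libraries that did not overlap in that comparison, against 11.8% of all genes.

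Hdac1 (chromosome 4, 129516104 to 129542713, minus strand), the paralogue of Hdac2, was at 139, 142 and 141 CPM in control, 139.7, 152, 157 and 155 CPM with siRNA 1, and 144, 153, 159 and 162 CPM with siRNA 2. All siRNA 2 libraries were above control, as were 3 of the 4 siRNA 1 libraries, and siRNA 1 replicate 1 lay within the control range. The log2 fold changes were 0.10 (SE 0.052, adjusted p = 0.321) and 0.13 (SE 0.052, adjusted p = 0.103), neither past the threshold. Of the 75-nt words of the Hdac1 exons, 29.3% are also in other genes, chiefly the pseudogene Gm10093, which was counted at 120 to 181 reads per library beside 941 to 1313 for Hdac1. The Hdac1 value is uncertain to that extent, and no other of the 10 genes shared such words.

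Of the MBD proteins, Mbd2 rose with siRNA 2. Mbd2 (ENSMUSG00000024513, chromosome 18, 70568189 to 70626131, plus strand) was at 23.2, 20.5 and 24.1 CPM in control, 24.2, 26.8, 24.3 and 28.2 CPM with siRNA 1, and 32.5, 26.4, 31.0 and 25.7 CPM with siRNA 2. Every library of either siRNA was above every control. The log2 fold change was 0.20 (SE 0.096, adjusted p = 0.275) with siRNA 1 and 0.35 (SE 0.094, adjusted p = 0.0116) with siRNA 2, the latter an increase of 27.4% (95% interval 12.2% to 44.7%). These counts were low, 163 to 230 reads per library. The siRNA 2 call was lost with DESeq2 (0.32, adjusted p = 0.0523), without control replicate 2 (0.28, adjusted p = 0.112) and without siRNA 2 replicate 1 (0.29, adjusted p = 0.0632). The direct difference between the siRNAs was 0.15 (SE 0.085, adjusted p = 0.314).

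Mbd3 (chromosome 10, 80392539 to 80399550, minus strand), the MBD gene through which NuRD acts in lineage commitment of ESCs, was at 139, 147 and 137 CPM in control, 135, 138, 137 and 127 CPM with siRNA 1, and 125, 145, 125 and 121 CPM with siRNA 2. Of the siRNA 2 libraries 3 lay below all controls and replicate 2 lay among them. The log2 fold changes, -0.069 (SE 0.055, adjusted p = 0.581) and -0.13 (SE 0.055, adjusted p = 0.146), did not pass the test. Without siRNA 2 replicate 2, the value with siRNA 2 was -0.19 (adjusted p = 0.0191). The share of Mbd2 in the summed per-kilobase level of Mbd2 and Mbd3 was 9.04% ± 0.97 (SD, n = 3) in control, 10.7% ± 1.0 (n = 4) with siRNA 1 and 12.2% ± 1.7 (n = 4) with siRNA 2.

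Of the remodelling ATPases, Chd3 was called with siRNA 1. Chd3 (ENSMUSG00000018474, chromosome 11, 69343273 to 69369406, minus strand) was at 33.1, 33.7 and 32.4 CPM in control, 41.4, 41.6, 38.8 and 35.8 CPM with siRNA 1, and 34.8, 38.9, 33.3 and 35.1 CPM with siRNA 2. All siRNA 1 libraries were above control, and siRNA 2 replicate 3 was within the control range. The log2 fold change was 0.25 (SE 0.077, adjusted p = 0.0454) with siRNA 1 and 0.10 (SE 0.077, adjusted p = 0.439) with siRNA 2, and the difference between them, -0.15, did not pass the test (adjusted p = 0.212). This call also lay at the threshold and held under 9 of 18 alternatives. It was lost with TMM factors (adjusted p = 0.0685), DESeq2 (0.159) and no filter (0.0682), on leaving out any 1 control library (0.106 to 0.149), and without siRNA 1 replicate 1 (0.132), 2 (0.168) or 3 (0.0542).

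Chd4 (ENSMUSG00000063870, chromosome 6, 125095981 to 125130591, plus strand), the main ATPase of NuRD in these cells, was at 969, 973 and 993 CPM in control, 933, 924, 943 and 942 CPM with siRNA 1, and 942, 946, 994 and 959 CPM with siRNA 2. The siRNA 1 libraries were all below control, and siRNA 2 replicate 3 was above it. The log2 fold changes were -0.065 (SE 0.039, adjusted p = 0.420) and -0.027 (SE 0.039, adjusted p = 0.735), with 95% intervals on the percent scale of -9.35% to 0.854% and -6.96% to 3.50%. With 6285 to 7929 reads per library, it was the most deeply counted of the members. Gatad2a (chromosome 8, 69907076 to 69996384, minus strand), which bridges the MBD protein and the ATPase, was at 327 to 350.4 CPM in control, 326 to 360.5 CPM with siRNA 1 and 325 to 369.6 CPM with siRNA 2. Its log2 fold changes were 0.014 (95% interval -0.078 to 0.11) and 0.045 (-0.047 to 0.14).

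For the mean of the siRNAs against control, Mta1 (-0.22, SE 0.044, adjusted p = 7.71e-04) and Mbd2 (0.27, SE 0.084, adjusted p = 0.0374) were called, 1 lower and 1 higher, against 6.91% of all genes (4.19% higher, 2.72% lower). The Mbd2 call was lost with TMM factors, with DESeq2 and on leaving out 7 of the 11 libraries in turn, whereas Mta1 was called in each of these. The remaining 8 members were between -0.098 for Mbd3 and 0.18 for Chd3 and did not pass the test.

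**Figure D3:**
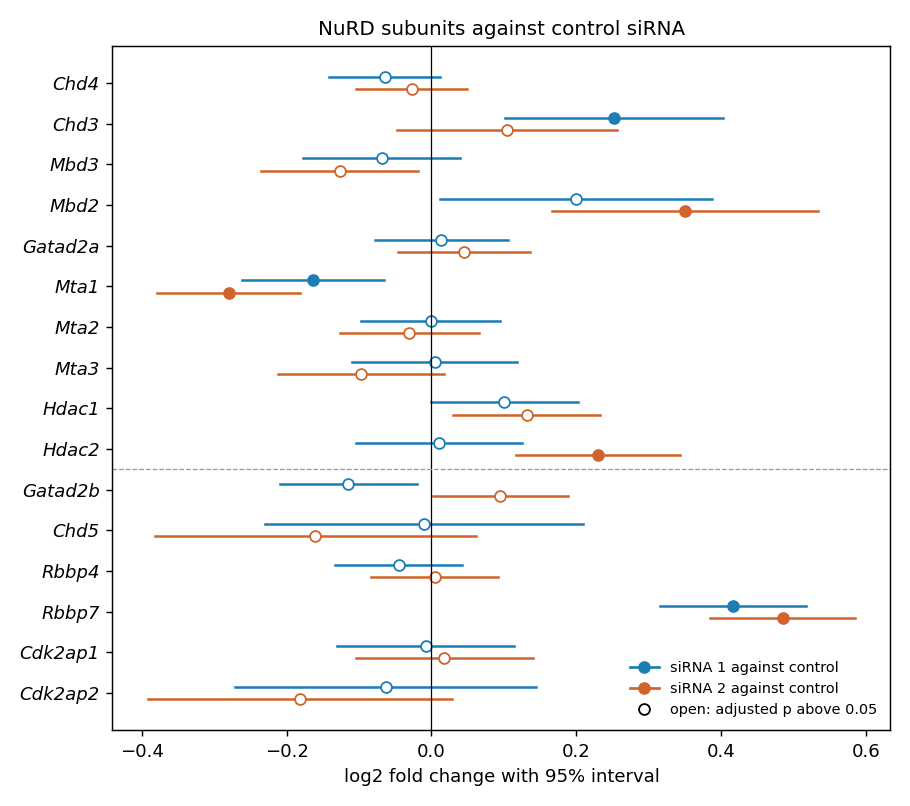
Log2 fold change (x axis) of the 10 subunit genes (above the dashed line) and of 6 further subunits (below it), for siRNA 1 and siRNA 2 against the same control libraries, with 95% intervals. Filled points have an adjusted p of at most 0.05, and Mta1 (-0.16 and -0.28) and Rbbp7 (0.42 and 0.49) are filled for both siRNAs.

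Further NuRD subunits were examined in the same fit. Of a list of 8, 6 passed the filter and 1, Rbbp7, was called with each siRNA, beside 4.67% and 9.72% of all genes. Rbbp7 (ENSMUSG00000031353, chromosome X, 162760402 to 162779092, plus strand) encodes a histone chaperone that NuRD shares with the SIN3 and Polycomb complexes. It was at 204, 189 and 186 CPM in control, 239, 250.4, 271 and 269.6 CPM with siRNA 1, and 282, 277, 250.2 and 273 CPM with siRNA 2. The 8 siRNA libraries were all above control, and Rbbp7 rose by 0.42 (SE 0.051, adjusted p = 5.46e-07) and 0.49 (SE 0.051, adjusted p = 6.85e-09), or 33.4% and 40.0%. Both calls held under all 18 alternatives. Its paralogue Rbbp4 was at 405 to 459 CPM over all libraries, with log2 fold changes of -0.046 and 0.0042. The share of Rbbp7 in the summed per-kilobase level of both was 57.3% ± 1.2 (SD, n = 3) in control, 64.8% ± 0.63 (n = 4) with siRNA 1 and 65.2% ± 0.45 (n = 4) with siRNA 2. Of the 75-nt words of the Rbbp7 exons 3.59% are also in Gm6382, and 18.1% of the Rbbp4 exons overlap genes on the opposite strand.

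Gatad2b, the paralogue of Gatad2a, was at 168, 174 and 166 CPM in control, 147, 159, 159.8 and 159 CPM with siRNA 1, and 186, 184, 177 and 177 CPM with siRNA 2. The siRNA 1 libraries were all below control and the siRNA 2 libraries all above it. Neither comparison with control passed the test (-0.12, adjusted p = 0.191, and 0.095, adjusted p = 0.221), but the siRNAs differed by 0.21 (SE 0.045, adjusted p = 0.00162), in the comparison in which Pax6, Tfap2c, Col1a1 and Dcn also differed. Chd5, which is mainly neuronal, was at 11.7 to 16.2 CPM over all libraries. The DOC1 subunit genes Cdk2ap1 and Cdk2ap2 were at 65.9 to 80.5 and 14.3 to 18.7 CPM, and 52.6% of the 75-nt words of Cdk2ap1 are also in other genes. These 3 genes were not called in any comparison. Mbd3l1 and Mbd3l2, relatives of Mbd3, had 0 reads in every library, which allows up to 0.358 to 0.445 CPM per library at 3 counts.

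The balance between paralogues was measured as the log2 ratio of their counts within each library, which does not depend on library scaling. The ratio of Mta1 to Mta2 was -0.16, -0.13 and -0.060 in control, -0.21, -0.27, -0.29 and -0.35 in the siRNA 1 libraries and -0.44, -0.30, -0.28 and -0.46 in those of siRNA 2. All siRNA libraries lay below control, with mean differences of -0.16 and -0.25. The ratio of Mbd3 to Mbd2 was 2.57, 2.84 and 2.51 in control, 2.48, 2.36, 2.49 and 2.17 in the siRNA 1 libraries and 1.94, 2.46, 2.00 and 2.23 in those of siRNA 2. It too was below control in all 8 siRNA libraries, by 0.26 and 0.48 in the mean. In these 4 comparisons the two-sided exact permutation test gave p = 0.0571, the smallest that 3 against 4 libraries allow. The ratios here and below reuse the counts of the single genes above and are not separate evidence. How often ratios of other gene pairs separate from control was not examined. Of single genes, 15.5% with siRNA 1 and 19.4% with siRNA 2 did not overlap control.

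The ratio of Chd4 to Chd3 was 4.87, 4.85 and 4.93 in control, 4.49, 4.47, 4.600 and 4.71 in the siRNA 1 libraries and 4.76, 4.602, 4.90 and 4.77 in those of siRNA 2. The siRNA 1 libraries were separate from control (difference -0.31, exact permutation p = 0.0571) and the siRNA 2 libraries were not (-0.13, exact permutation p = 0.171). The ratio of Hdac1 to Hdac2 was 0.41, 0.42 and 0.50 in control, 0.54, 0.55, 0.46 and 0.60 in the siRNA 1 libraries and 0.23, 0.43, 0.43 and 0.30 in those of siRNA 2. The siRNA groups did not overlap each other (difference -0.19, exact permutation p = 0.0286, the smallest that 4 against 4 libraries allow), and both overlapped control. The ratio of Gatad2a to Gatad2b also separated the siRNAs (difference -0.18, exact permutation p = 0.0286). It was above control in all siRNA 1 libraries (difference 0.13, exact permutation p = 0.0571) and overlapped control with siRNA 2. The ratio of Mta3 to Mta2 overlapped in all 3 comparisons. After adjustment over the 18 exact permutation tests of 6 pairs, the lowest p was 0.114, so that none of the ratios passed the threshold, which comparisons of 3 with 4 libraries could not reach.

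**Figure D4:**
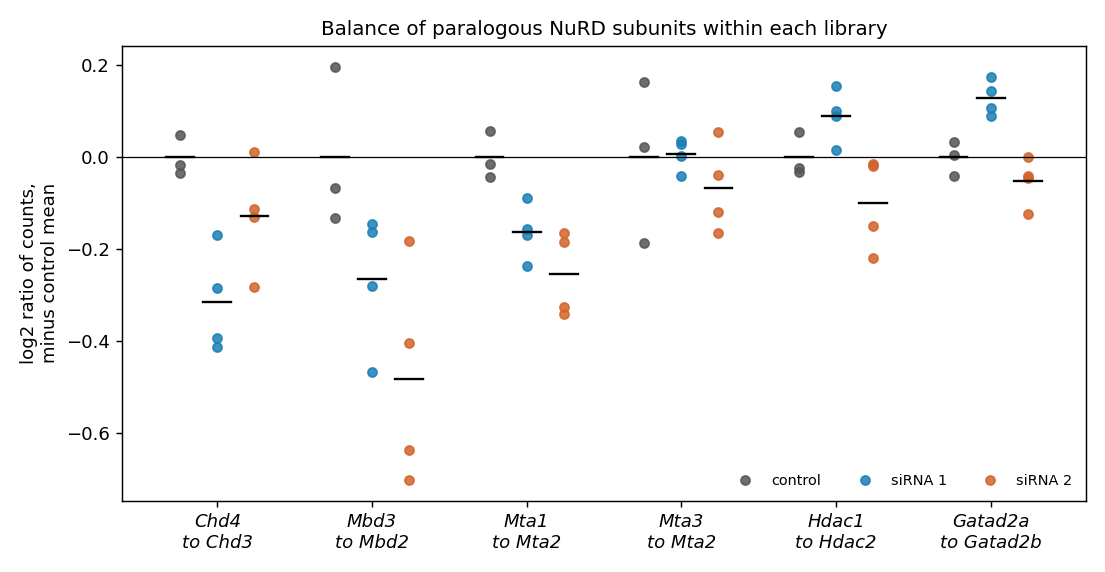
Log2 ratio of the counts of paralogous subunits within each library, minus the mean of the 3 control libraries, with 1 point per library and a bar at each group mean. Mta1 to Mta2 and Mbd3 to Mbd2 are below control in all 8 siRNA libraries, and Hdac1 to Hdac2 and Gatad2a to Gatad2b separate the siRNAs from each other. How often ratios of other gene pairs separate was not examined.

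Proteins that recruit or accompany NuRD were summarised from a list of 20, all tested. With siRNA 1, 1 of 20 was called, beside 4.67% of all genes, namely Zfp296, which fell by 0.35 (SE 0.085, adjusted p = 0.00833). With siRNA 2, 4 of 20 were called, beside 9.72% of all genes, of which Sall3 rose by 0.34 (SE 0.087, adjusted p = 0.00871) and Sall1 (-0.20, adjusted p = 0.00891), Bend3 (-0.20, adjusted p = 0.00904) and Zfp296 (-0.26, adjusted p = 0.0404) fell. SALL proteins carry an amino-terminal motif that binds NuRD, ZFP296 is a zinc finger protein of ESCs that associates with NuRD, and BEND3 is a DNA-binding repressor. Sall4, the most abundant SALL gene of ESCs, was at 504 ± 13 CPM (SD, n = 3) in control, 519 ± 11 (n = 4) with siRNA 1 and 497 ± 30 (n = 4) with siRNA 2. The Zfp296 call with siRNA 2 held under 10 of 18 alternatives, and with siRNA 1 it was lost without control replicate 2 or 3. Single libraries also ended the siRNA 2 calls of Sall1 (control replicate 3 or siRNA 2 replicate 4), Sall3 (control replicate 3) and Bend3 (control replicate 1). The median log2 fold changes of the list were 0.042 and 0.023, beside 0.024 and 0.029 over all genes.

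HDAC1 and HDAC2 also serve the SIN3, CoREST and MiDAC complexes. The counts of these lists are to be read against the 4.67% of all genes called with siRNA 1 and the 9.72% called with siRNA 2. Of 13 SIN3 genes, 1 was called with siRNA 1, the subunit gene Sap130, which fell by 0.24 (SE 0.053, adjusted p = 0.00288). None was called with siRNA 2, where the edgeR quasi-likelihood test gave 0 of 13 an unadjusted p below 0.05, and exactTest and DESeq2 called 0. Of 10 CoREST and MiDAC genes, Trerf1, a MiDAC subunit gene, rose with siRNA 1 (0.22, adjusted p = 0.0210) and siRNA 2 (0.30, adjusted p = 4.89e-04), and Hmg20b, a CoREST subunit gene, fell with siRNA 2 (-0.23, adjusted p = 0.0427), a call that held under 8 of 18 alternatives. The Trerf1 call with siRNA 1 held under 14 of 18 and was lost with DESeq2, without control replicate 2 or 3 and without siRNA 1 replicate 2. Of 13 other deacetylase genes, 2 were called with siRNA 1 and 3 with siRNA 2. The class IIa gene Hdac9, at 5.43 ± 0.33 CPM (SD, n = 3) in control, rose by 0.61 and 0.57 (adjusted p = 0.0179 and 0.0170). These calls held under 14 and 15 of 18 alternatives, and both were lost with DESeq2 and without control replicate 2, that with siRNA 1 also without control replicate 3 or siRNA 1 replicate 4, and that with siRNA 2 also without siRNA 2 replicate 3. Hdac5, of the same class, rose with siRNA 1 (0.22, adjusted p = 0.0498, held under 10 of 18 alternatives). Hdac10 (-0.48, adjusted p = 0.0392, held under 9 of 18) and the sirtuin gene Sirt1 (-0.23, adjusted p = 0.0128) fell with siRNA 2, and the Sirt1 call was lost without control replicate 2.

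Pluripotency genes known to be held down by NuRD in ESCs were listed as Klf4, Klf5, Tbx3 and Zfp42. All 4 were called lower with siRNA 1 and 3 of 4 with siRNA 2, where Klf5 did not pass the test. Of all genes, 1.97% and 3.55% were called lower. Klf4, a transcription factor of naive pluripotency, was at 59.2 ± 3.3 CPM (SD, n = 3) in control, 44.8 ± 5.6 (n = 4) with siRNA 1 and 38.7 ± 2.0 (n = 4) with siRNA 2, log2 fold changes of -0.40 and -0.61 (adjusted p = 3.56e-04 and 1.47e-07). Zfp42 fell by 0.32 and 0.31 (adjusted p = 0.00154 and 0.00123) and Tbx3 by 0.40 and 0.43 (adjusted p = 0.00377 and 7.96e-04). Klf5 was at -0.21 with siRNA 1 (adjusted p = 0.00479) and -0.092 with siRNA 2 (adjusted p = 0.242). The Tbx3 call with siRNA 1 was lost without control replicate 2 (adjusted p = 0.0914). Of the 8 ESC markers, which include Zfp42, 5 were called lower with siRNA 1 and 3 with siRNA 2, beside the same shares of all genes. Nanog (-0.57 and -0.54) and Esrrb (-0.34 and -0.55) were called with both. Dppa5a (-0.25, adjusted p = 0.00313) and Pou5f1 (-0.16, adjusted p = 0.0332, held under 11 of 18 alternatives) were called with siRNA 1 only. Sox2, Tdgf1 and Utf1 were not called against control.

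Genes whose log2 CPM followed that of a called member most closely were named among 7935 protein-coding genes over the 11 libraries, as a description. The points share their groups, controls and library scaling. For Mta1 these were Cep164 (Pearson's r = 0.96), Ubtf (0.95) and Syngr1 (0.94). For Hdac2 they were Esf1 (0.98), Ddx3y (0.96) and Mtpn (0.95). For Mbd2 they were Epb41l3 (0.92), Cbx2 (0.92) and Mysm1 (0.89), and for Chd3 they were Cox6b2 (0.94), Prom1 (0.93) and Cd81 (0.92). No other NuRD subunit was among these 12 genes.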

How the data were processed

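RNA from 11 samples of mouse ESCs was sequenced as rRNA-depleted, directional libraries. The authors deposited counts, whole numbers of reads per Ensembl gene, made by trimming with Cutadapt, alignment to GRCm38 with STAR, removal of duplicates with Picard and counting with featureCounts; versions are not given in the sources used here. Summary lines in HTSeq-count layout at the end of 10 of the 11 files were left out. They count reads in no gene, ambiguous reads and reads without a unique alignment.

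Symbols, exon lengths and coordinates came from GENCODE vM21. Genes with more than 1 CPM in at least 4 libraries were tested with the edgeR 4.0.16 quasi-likelihood test (R 4.3.3) in a fit of the 3 groups, scaled by total counts. Adjusted p-values are Benjamini-Hochberg values over all 16073 genes, and a gene was called at 0.05. Intervals are the estimate ± 1.96 SE. Paralogue ratios used counts plus 0.5 and exact permutation tests (scipy 1.17.1). The code was tested on simulated data. Alternatives were TMM factors, DESeq2 1.42.0, exactTest, other filters and pseudocounts, fits of only the groups compared, a replicate block and each library left out.

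The members and lists were chosen with earlier results of these data known. All 10 members and the other subunits were named. Of each further list, the genes called against control were named, as were those called between the siRNAs. Sox2, Tdgf1, Utf1 and Lum were named without a call, and Sall4 was added after its values were seen. The study's methods give 3 biological replicates for sequencing, whereas each CMTR1 siRNA group holds 4 libraries. The labels do not say which of the 11 libraries, 3 or 4 in a group, are separate cultures. P-values measure the spread between these libraries.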

Additional observations from a re-analysis of the deposited data

Results flagged for a closer look

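Mbd3 was at 145 CPM in siRNA 2 replicate 2, apart from the other 3 libraries of that group at 121 to 125 CPM. Gatad2b was at 147 CPM in siRNA 1 replicate 1, where the other 3 libraries were at 159 to 159.8 CPM. These were 2 of 32 groups examined. Groups of 3 were not examined for such samples, and chance sets apart about 1 group in 20.

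The siRNAs differed directly (siRNA 2 minus siRNA 1, edgeR, log2) in Hdac2 by 0.22 (adjusted p = 0.00664) and in Gatad2b by 0.21 (adjusted p = 0.00162). In the related lists they differed in Pwwp2b by 0.61 (adjusted p = 6.65e-04), Sap130 by 0.32 (adjusted p = 1.42e-05), Hdac5 by -0.20 (adjusted p = 0.0420) and Sirt6 by -0.27 (adjusted p = 0.0236). Both siRNAs were designed against Cmtr1, whose RNA did not differ between them past the threshold (-0.16, adjusted p = 0.387). That RNA did not pass the test against control with either siRNA, so it cannot compare the strength of the knockdown. Pwwp2b encodes a NuRD-associated chromatin protein and was at 12.9 ± 2.2 CPM (SD, n = 3) in control, 10.0 ± 1.0 (n = 4) with siRNA 1 and 15.4 ± 2.0 (n = 4) with siRNA 2. The calls for Hdac5 and Sirt6 held under 9 and 11 of 18 alternatives, and those for the other 4 genes under all 18.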

How the results depend on the processing

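The count of members called with siRNA 1 was 2, and it was 1 with TMM factors (Mta1), 1 with DESeq2 (Mta1), 0 in edgeR without a filter on low counts (3 at an unadjusted p below 0.05), 1 with the replicate block (Chd3) and 0 to 2 on leaving out each library in turn. For the mean of both siRNAs it was 2, and 1 with TMM factors, 1 with DESeq2 and 1 to 2 on leaving out libraries, with Mta1 called each time. For siRNA 2 it ran from 2 to 4 on leaving out libraries, and the replicate block left the counts for siRNA 2 (3), for the direct comparison (1) and for the mean (2) as they were. Values near 0 changed sign with siRNA 1. Mta3 was at -0.015 with TMM factors, -0.019 with DESeq2, -0.015 with the replicate block and -0.068 to 0.044 on leaving out libraries. Hdac2 was at -0.0097, -0.014, -0.0080 and -0.036 to 0.045 in the same order. Gatad2a was at -0.0066 with TMM factors, -0.010 with DESeq2 and -0.012 to 0.037 on leaving out libraries. On leaving out libraries Mta2 ran from -0.044 to 0.027, and Hdac1 between the siRNAs from -0.0033 to 0.063. The ratio of Mta3 to Mta2 with siRNA 1 was at -0.00075 with the replicate block and -0.087 to 0.089 on leaving out libraries, and with siRNA 2 it ran from -0.16 to 0.016. The cause of these changes was not tested.

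Over all genes DESeq2 called 958 in place of 1562 with siRNA 2, and 740 in place of 1196 between the siRNAs. Leaving out libraries gave 355 to 850 with siRNA 1, 807 to 1667 with siRNA 2, 724 to 1374 between the siRNAs and 499 to 1215 for their mean. TMM factors moved the median of all genes by less than 0.1, from 0.024 to 0.0042 with siRNA 1. Adding the Gm10093 reads to Hdac1, chosen after seeing the data, changed no call. The exactTest and the fits of only the groups compared were not run for the mean. Same-numbered libraries did not deviate together (mean r = 0.010 over 10 pairs, against -0.0034 over 30 others), so the numbers were not taken as pairs. The replicate block moved the count over all genes from 751 to 840 with siRNA 1 and from 1562 to 1486 with siRNA 2, and under it Mta1 with siRNA 1 was at -0.15 (adjusted p = 0.108).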
